A study of Gallus gallus with 31 samples.

Results

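Abdominal fat of Ross chickens was compared between the trial named Fall 13 and the trial named Fall 12, using the 4 libraries titled for the later trial (numbers 1195 to 1198) and the 4 titled for the earlier one (numbers 1199 to 1202). These are 8 of the 31 libraries of a series on fat of male chickens, which also holds fat of the heart region, here called cardiac, and a line labelled only Illinois. Ross is a commercial broiler line. In both trials the birds were male, aged 42 days after hatching and titled Control, and were raised on litter with free access to feed and water under nearly continuous light. The fat was flash frozen, and polyA RNA was made into libraries with a stranded Illumina kit. The labels name no treatment, genotype or allele that differs between the trials, and do not say whether a library came from 1 bird, so a p-value here sets a difference against the spread among these 8 libraries, which may be technical. Library numbers do not overlap between the trials, so anything that went with the order of library making and the trial cannot be told apart. The question that the 2 trials were meant to answer is not stated in the labels.

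Abdominal fat of the chicken is the main energy store of the growing broiler. Its mature fat cells, filled by 1 lipid droplet, take up fatty acids that the liver makes, while the tissue itself makes little of its own fat. Between them lies a stroma of fibroblasts, fat cell precursors, vessels and immune cells, which lays down and remodels the extracellular matrix. The nuclear receptor PPARG drives precursors into fat cells and keeps mature fat cells in their state, whereas Wnt and TGF-beta signals are known in mammals to hold precursors back.

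The table analysed here gave 564 genes, consecutive by gene number, so counts and shares hold for these genes alone and not for the genome. FPKM are fragments per length of transcript and per library total. Of the 564 genes, 391 reached 1 FPKM in at least 4 of the 8 libraries and were tested. A value of 0.001 is a floor, at which 28 genes stood in all 8 libraries. Relative depth, read from the steps of low values, was 0.513 to 1.07 in Fall 13 and 0.579 to 0.685 in Fall 12, with 1 FPKM resting on about 25.6 fragments at the median depth of the series. The highest of these belongs to library 1196 and could be a multiple of the true one. FABP4, the fatty acid carrier that marks fat cells, was by far the most abundant gene in every library, and PPARG and CAV1 were present in all 8, which fits the labelled tissue. Correlations of log2 values across genes were 0.934 to 0.964 among Fall 13 libraries, 0.920 to 0.961 among Fall 12 libraries and 0.883 to 0.931 between trials. The first principal component held 45.5% of the variance and separated the trials, and the second, with 15.8%, set Fall 12 library 1202 apart.

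Most called genes were lower in Fall 13, and among the largest falls were genes of the matrix, the mesenchyme and stromal signals, THBS1, FBN1, CXCL12 and PRRX1 among them. Of the called genes, 5 were under 1 FPKM in every Fall 13 library and 2, TRAF5 and ADORA3, in every Fall 12 library, so these 7 could enter the test only through the trial in which they were high. Called genes that were higher included PPARG, the master regulator of fat cells, with ME1, DBI and ID1. With limma on log2(FPKM + 1), 123 of 391 genes (31.5%) passed an adjusted p below 0.05, 15 higher (3.84%) and 108 lower (27.6%) in Fall 13. All 4 Fall 13 libraries lay above all 4 Fall 12 libraries in 23 genes (5.88%) and below them in 113 genes (28.9%). The median log2 fold change of all tested genes was -0.32, and it moved to 0.01 with the upper quartile of every library made equal, to 0.05 with quantile normalization and to 0.05 when libraries were set to the same sum without FABP4. With these scalings the calls were 37 higher (9.46%) and 47 lower (12.0%), 42 higher (10.7%) and 49 lower (12.5%), and 36 higher (9.21%) and 41 lower (10.5%). In all, 15 higher (3.84%) and 39 lower (9.97%) genes were called with the values as deposited and with each of the 3 scalings, and the direction of a modest decline rests on the scaling. Leaving out library 1200 gave 80 calls, of which 67 were lower, and leaving out library 1199 gave 70 lower calls.

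**Figure D1:**
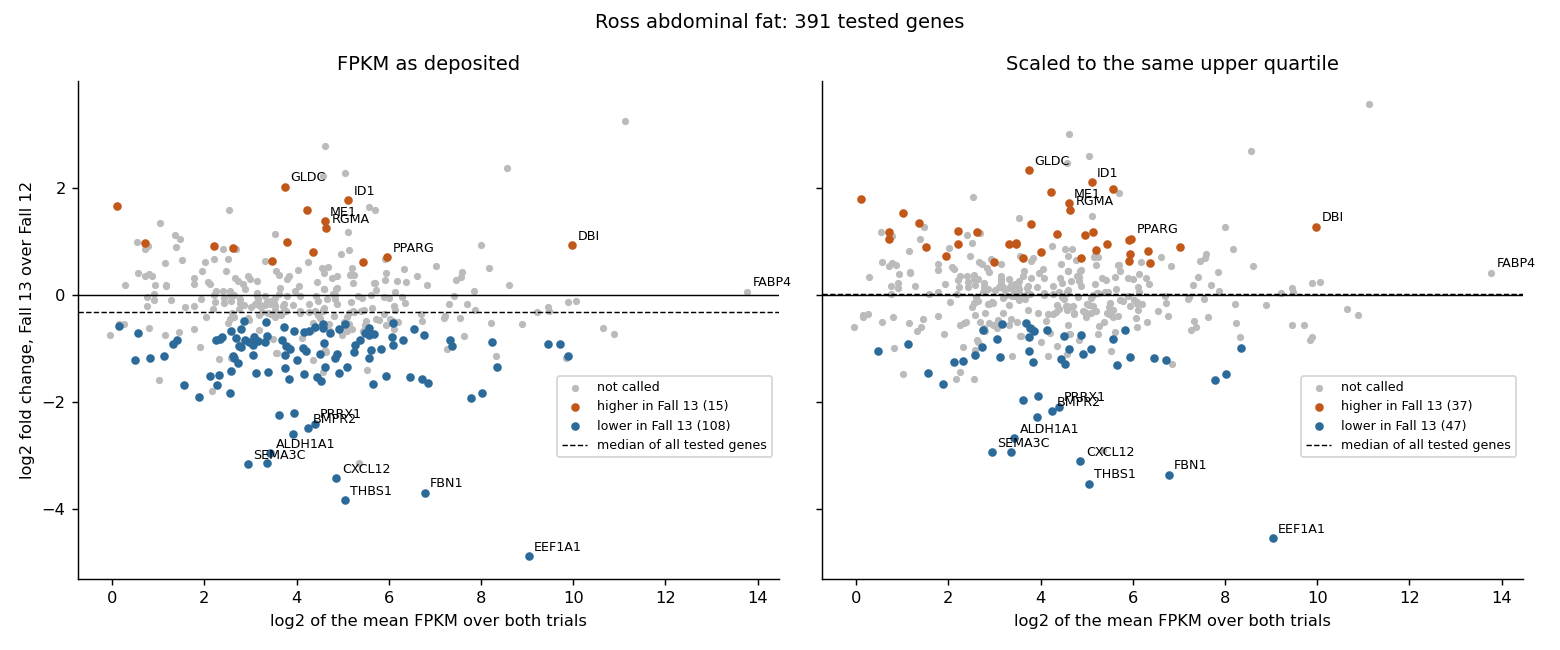
Each point is 1 of 391 tested genes, with the log2 of its mean FPKM over both trials on the x axis and the log2 fold change of Fall 13 over Fall 12, on the log2(FPKM + 1) scale, on the y axis. The left panel shows values as deposited, with a median of -0.32 (dashed), and the right panel values scaled to the same upper quartile, where the median is 0.01 and higher calls number 37 against 15.

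The share of FABP4 in the summed FPKM of the 564 genes moved with that shift, while its own FPKM was not called as deposited. FABP4 stood at 13607, 15304, 14045 and 13782 FPKM in Fall 13 libraries 1195, 1196, 1197 and 1198, against 12658, 12105, 16747 and 13361 FPKM in Fall 12 libraries 1199, 1200, 1201 and 1202. The groups overlap, and the log2 fold change of 0.06 ± 0.14 (SE) had an adjusted p of 0.765 in limma. With libraries set to the same sum without FABP4, it was called higher (limma adjusted p = 0.0412), and with the other scalings it was not. The summed FPKM of all other genes in the table was 24170 to 26811 in Fall 13 and 29803 to 37789 in Fall 12, without overlap. FABP4 therefore made up 35.8% ± 1.201 of the summed FPKM in Fall 13 and 28.3% ± 4.12 in Fall 12 (SD, n = 4 each), a difference of 7.52 percentage points. An exact permutation test, two-sided, gave p = 0.0286, the smallest that 4 against 4 libraries allow. Because FABP4 itself overlapped, that p rests mainly on the sum of the other genes and is no separate result. That sum includes values at the floor and uneven genes such as EEF1A1, at 0.0118% of the summed FPKM in library 1196 and 4.15% in library 1199. Below, libraries are always given in the order of their numbers, and fold changes are on the log2(FPKM + 1) scale with their SE. Counts of calls as deposited in any gene list stand beside 3.84% higher and 27.6% lower among all tested genes.

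The matrix and fibroblast genes held some of the largest falls. Of 11 tested members, 5 were lower and 0 higher, against 27.6% lower among all tested genes, and the list's median log2 fold change was -1.14 as deposited and -0.78 after upper quartile scaling, beside -0.32 and 0.01 for all genes. THBS1 encodes thrombospondin 1, a matrix glycoprotein that activates latent TGF-beta and restrains vessel growth. It measured 5.10, 4.16, 2.18 and 2.67 FPKM in Fall 13, against 68.0, 67.3, 72.0 and 43.8 FPKM in Fall 12. The groups stood far apart, with the lowest Fall 12 value in library 1202, and the log2 fold change was -3.84 ± 0.26 (limma adjusted p = 6.32e-05).

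FBN1 encodes fibrillin 1, the backbone of microfibrils. It measured 19.3, 9.80, 5.97 and 10.5 FPKM in Fall 13, against 360, 308, 133 and 31.8 FPKM in Fall 12. The groups do not overlap, although Fall 12 libraries spread over more than a factor of 10, with library 1202 lowest. The log2 fold change was -3.69 ± 0.75 (limma adjusted p = 0.00913) and -4.42 without library 1202. FBLN1, fibulin 1, a glycoprotein of basement membranes and elastic fibres, measured 8.67, 2.74, 2.24 and 5.24 FPKM in Fall 13, against 34.0, 37.4, 23.4 and 8.98 FPKM in Fall 12. Library 1195 of Fall 13 and library 1202 of Fall 12 all but met, and the log2 fold change was -2.20 ± 0.49 (limma adjusted p = 0.0117).

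The other called members, MMP2 and OGN, had overlapping groups. MMP2, a gelatinase that degrades collagen, averaged 45.3 ± 21.6 FPKM in Fall 13 and 132 ± 53.7 FPKM in Fall 12 (SD, n = 4 each), with a log2 fold change of -1.53 ± 0.37 (limma adjusted p = 0.0172). That call was lost when libraries were set to the same sum without FABP4. OGN, the small leucine-rich proteoglycan osteoglycin, averaged 54.5 ± 28.8 FPKM in Fall 13 and 175 ± 86.8 FPKM in Fall 12 (SD, n = 4 each), with a log2 fold change of -1.64 ± 0.45 (limma adjusted p = 0.0244). The OGN call was lost without library 1196, 1197, 1198, 1199 or 1200, with upper quartile scaling and with the same sum without FABP4.

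The remaining 6 matrix genes did not pass. SPARC, an abundant collagen-binding protein, averaged 1306 ± 407 FPKM in Fall 13 and 2488 ± 1293 FPKM in Fall 12 (SD, n = 4 each; limma adjusted p = 0.291). TIMP2, an inhibitor of MMP2, averaged 210 ± 116 FPKM in Fall 13 and 431 ± 120 FPKM in Fall 12 (SD, n = 4 each; limma adjusted p = 0.0561). OPTC, the proteoglycan opticin, had the opposite sign, with 70.3 ± 36.2 FPKM in Fall 13 and 25.2 ± 19.7 FPKM in Fall 12 (SD, n = 4 each) and a log2 fold change of 1.63 ± 0.57 (limma adjusted p = 0.0553). OPTC was called higher with each of the 3 scalings. Across the 11 genes, library 1195 was the highest of Fall 13 in 9 and library 1202 the lowest of Fall 12 in 7, against 37.3% and 33.5% of all tested genes.

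**Figure D2:**
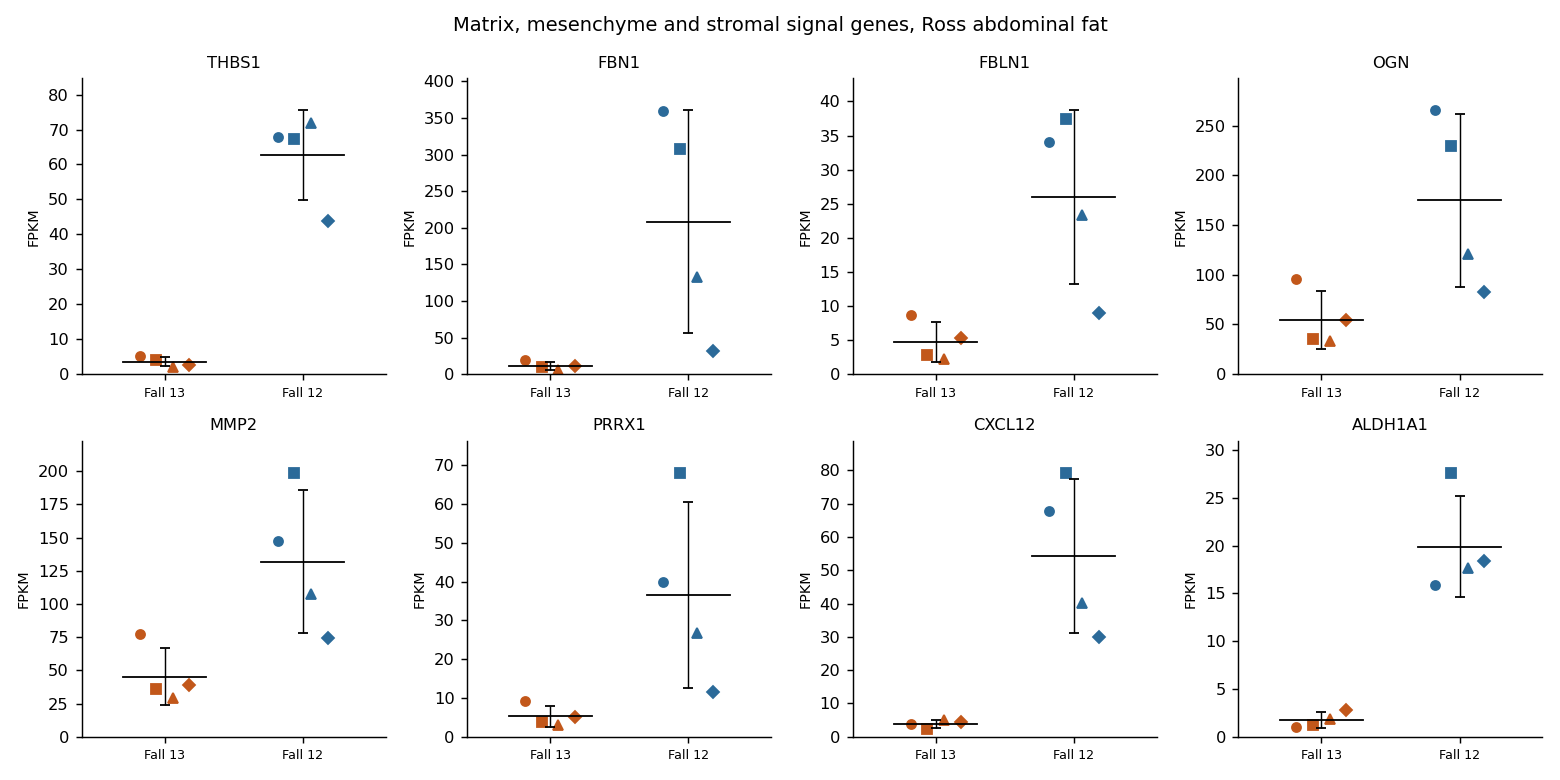
FPKM of 8 genes in the Ross abdominal libraries, Fall 13 left and Fall 12 right, 1 point per library with shapes in the order of library numbers, and the mean ± SD (n = 4 each) in black. THBS1 lies at 2.18 to 5.10 FPKM in Fall 13 and 43.8 to 72.0 FPKM in Fall 12, while OGN and MMP2 overlap.

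PRRX1 and CXCL12 were 2 further genes of the stroma with large falls. PRRX1, a homeobox factor of mesenchymal precursors, measured 9.17, 3.90, 3.08 and 5.20 FPKM in Fall 13, against 39.9, 68.0, 26.8 and 11.6 FPKM in Fall 12. The order of libraries resembles that of FBLN1, with library 1195 high in Fall 13 and library 1202 low in Fall 12, and the log2 fold change was -2.41 ± 0.51 (limma adjusted p = 0.00913). CXCL12, the chemokine by which stroma retains leukocytes and progenitors, measured 3.71, 2.34, 5.17 and 4.53 FPKM in Fall 13, against 67.9, 79.3, 40.1 and 30.0 FPKM in Fall 12. The lowest Fall 12 library lay well above the highest Fall 13 library, and the log2 fold change was -3.42 ± 0.33 (limma adjusted p = 0.000374).

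The wider lists held few further calls. Among 12 tested chemokines, cytokines and their receptors, CXCL12 and TGFBR1 were lower and 0 were higher, with a median of -0.27 beside -0.32 for all tested genes. Among 8 tested genes of limb and mesenchyme patterning, PRRX1 and TBX2 were lower and 0 were higher, with a median of -0.42. Both counts are below the 27.6% of all tested genes that were lower. TBX2, a T-box repressor, averaged 6.78 ± 2.53 FPKM in Fall 13 and 13.1 ± 3.82 FPKM in Fall 12 (SD, n = 4 each; limma adjusted p = 0.0435), a call lost with all 3 scalings and without any 1 of libraries 1196, 1197, 1198, 1199, 1200 and 1202.

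Of 5 listed fibroblast markers the table held FBLN1 and PRRX1, which are described above among the called genes and so give no separate measure of fibroblast content. Their sum lay at 5.32 to 17.8 FPKM in Fall 13 and 20.6 to 105 FPKM in Fall 12, and neither was at the floor in any library. In whole tissue, fewer cells of a type and less RNA per cell cannot be told apart. The 5 measured endothelial markers summed to 174 to 310 FPKM in Fall 13 and 234 to 394 FPKM in Fall 12. PTPRC, the pan-leukocyte phosphatase CD45, lay at 16.4 to 39.8 FPKM in Fall 13 and 14.8 to 26.5 FPKM in Fall 12, with a limma adjusted p of 0.243, and the plasma cell gene IGJ at 0.818 to 19.3 FPKM in Fall 13 and 2.20 to 31.4 FPKM in Fall 12. Striated muscle markers summed to 0.935 to 9.30 FPKM in Fall 13 and 0.0533 to 0.534 FPKM in Fall 12, with MYOG at the floor in all 8 libraries and CASQ2 at 0.672 to 5.10 FPKM in Fall 13 and 0.001 to 0.502 FPKM in Fall 12. The part of these markers in the gene results was not tested.

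The list of retinoid and nuclear receptor genes had the lowest median of the lists with at least 4 tested members. It was -2.16 as deposited and -1.84 after upper quartile scaling. That median counts RARA at a log2 fold change of -3.14, which comes from 2 Fall 13 libraries at the floor, so it is not a measured level of the list. The 4 tested members were ALDH1A1, NR2F2, NR3C2 and RARA. Other nuclear receptors stand outside the list, among them PPARG, called higher, and NR1H3, called lower. The median is therefore not one of nuclear receptors as a family. ALDH1A1, retinaldehyde dehydrogenase, which makes retinoic acid, measured 0.981, 1.22, 1.81 and 2.84 FPKM in Fall 13, against 15.8, 27.6, 17.6 and 18.4 FPKM in Fall 12. Library 1198 was highest in Fall 13 and library 1200 in Fall 12, and the groups did not overlap, with a log2 fold change of -2.96 ± 0.26 (limma adjusted p = 0.000329). NR2F2, the orphan receptor COUP-TFII, averaged 19.1 ± 5.69 FPKM in Fall 13 and 49.1 ± 2.34 FPKM in Fall 12 (SD, n = 4 each), for a log2 fold change of -1.36 ± 0.21 (limma adjusted p = 0.00223). RARA, a retinoic acid receptor, was listed at the floor in Fall 13 libraries 1196 and 1197 and at 42.4 and 47.7 FPKM in libraries 1195 and 1198, against 52.2 to 67.2 FPKM in Fall 12, and was not called. Of the 4 tested members, 2 were lower and 0 higher, beside 27.6% lower and 3.84% higher among all tested genes.

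Genes of the fat cell itself split in 2 directions. Among 5 tested regulators, 1 was higher and 3 were lower, and among 3 tested carriers and caveolar genes, 1 was higher and 0 were lower. Among all tested genes 3.84% were higher and 27.6% lower. PPARG measured 81.3, 89.5, 65.9 and 73.2 FPKM in Fall 13, against 34.9, 56.4, 48.9 and 50.6 FPKM in Fall 12. All Fall 13 libraries lay above all Fall 12 libraries, and the log2 fold change was 0.70 ± 0.19 (limma adjusted p = 0.0231). With the 3 scalings it was between 1.05 and 1.0996, with adjusted p-values below that value. Without library 1196 or 1199 the adjusted p was 0.0607 or 0.0600, and with the spread shared over the 16 Ross or all 31 libraries it was 0.206 or 0.191.

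DBI, the acyl-CoA binding protein that carries activated fatty acids, measured 1136, 1555, 1768 and 888 FPKM in Fall 13, against 749, 646, 630 and 707 FPKM in Fall 12. The groups do not overlap, and the log2 fold change was 0.92 ± 0.24 (limma adjusted p = 0.0203), a call lost without library 1196 or 1200. ME1, malic enzyme, which supplies NADPH for fatty acid synthesis, measured 60.9, 22.3, 26.6 and 35.6 FPKM in Fall 13, against 13.3, 10.97, 12.9 and 12.5 FPKM in Fall 12. Fall 12 libraries were tight and all below Fall 13 libraries, among which library 1195 was highest, and the log2 fold change was 1.38 ± 0.29 (limma adjusted p = 0.00913).

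The other fat cell regulators that passed went down. NR1H3, the oxysterol receptor LXR-alpha, measured 29.9, 28.4, 32.4 and 24.2 FPKM in Fall 13, against 52.0, 74.5, 73.5 and 65.5 FPKM in Fall 12. The groups are well apart, with a log2 fold change of -1.18 ± 0.17 (limma adjusted p = 0.00176), not called when the spread was shared over all 31 libraries. ABCA1, the cholesterol exporter and an LXR target in mammals, measured 15.7, 5.02, 10.8 and 12.8 FPKM in Fall 13, against 26.3, 28.2, 49.7 and 35.1 FPKM in Fall 12. It did not overlap either, with a log2 fold change of -1.62 ± 0.34 (limma adjusted p = 0.00913). ME1 and ABCA1 were the 2 called members of the 4 tested lipid synthesis and sterol genes, 1 each way.

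EBF2, a factor of brown and beige precursors in mice, averaged 4.89 ± 1.81 FPKM in Fall 13 and 16 ± 8.32 FPKM in Fall 12 (SD, n = 4 each; limma adjusted p = 0.0234). EBF3, a relative of it, averaged 13.3 ± 1.49 FPKM in Fall 13 and 22.5 ± 5.69 FPKM in Fall 12 (SD, n = 4 each; limma adjusted p = 0.0321). Both calls were lost with all 3 scalings, that of EBF2 also without library 1196, 1198, 1199 or 1200 and that of EBF3 without library 1195, 1196, 1198, 1199 or 1202. CAV1, the coat protein of caveolae, averaged 248 ± 68.2 FPKM in Fall 13 and 347 ± 44.3 FPKM in Fall 12 (SD, n = 4 each) and was not called (limma adjusted p = 0.137). All Fall 13 libraries lay below all Fall 12 libraries for CAV1, as they did in 28.9% of all tested genes. The summed fat cell markers FABP4, PPARG and CAV1 were 13960 to 15672 FPKM in Fall 13 and 12466 to 17150 FPKM in Fall 12. FABP4 made up nearly all of that sum, which hides the opposite directions of PPARG and CAV1.

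**Figure D3:**
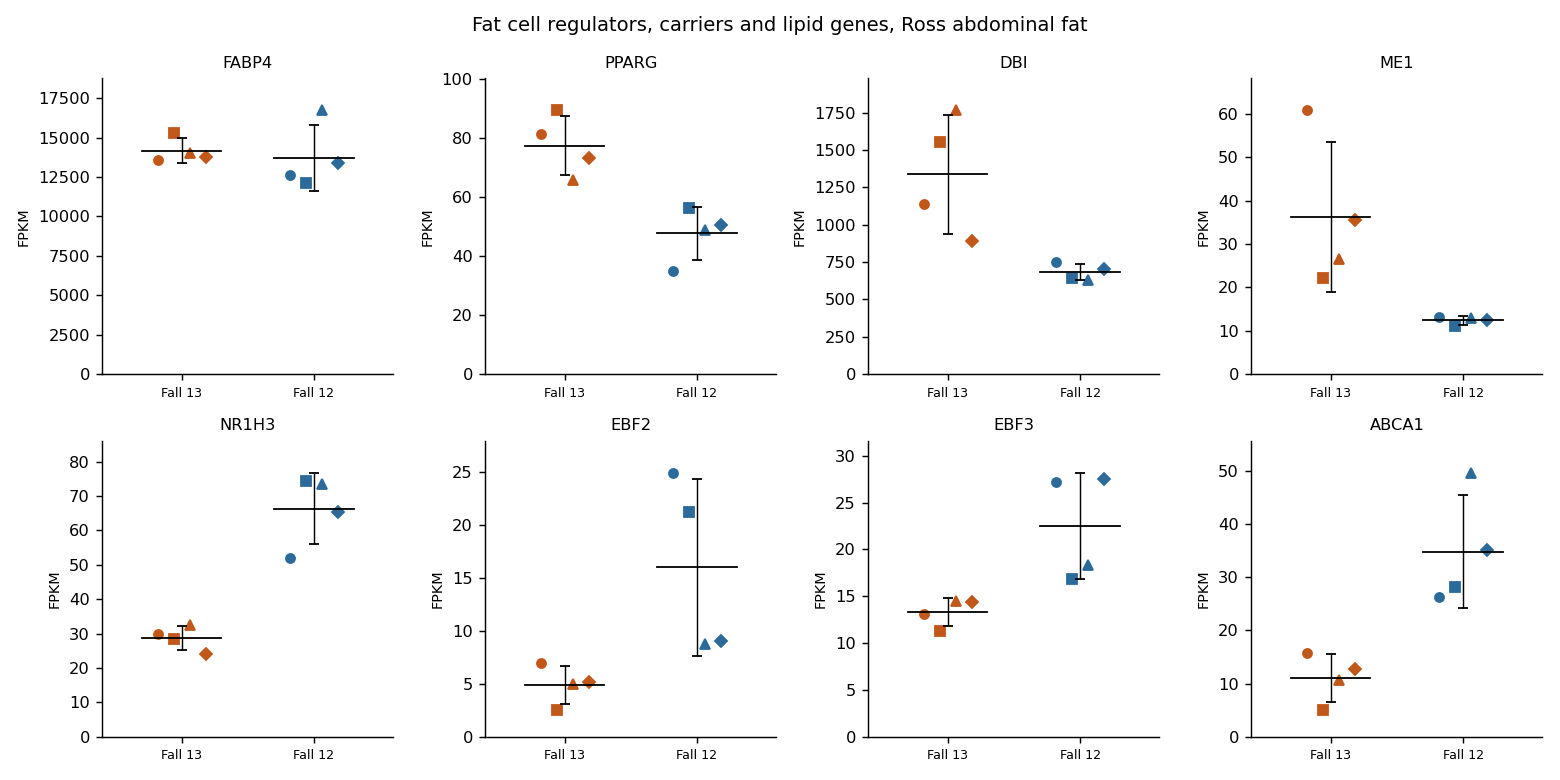
FPKM of 8 fat cell and lipid genes in the Ross abdominal libraries, Fall 13 left and Fall 12 right, 1 point per library with shapes in the order of library numbers, and the mean ± SD (n = 4 each) in black. PPARG, DBI and ME1 are higher in Fall 13 and NR1H3 and ABCA1 lower, while FABP4 overlaps; the EBF2 and EBF3 calls are lost with all 3 scalings.

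Of 10 tested receptors and intracellular parts of the Wnt pathway, 6 were lower and 0 higher as deposited, against 27.6% and 3.84% of all tested genes, with a median of -1.02. After upper quartile scaling 3 were lower and 3 higher, against 12.0% and 9.46% of all tested genes, with a median of -0.73. FZD4, a frizzled receptor active in vessels, measured 36.1, 31.9, 31.9 and 24.0 FPKM in Fall 13, against 71.6, 74.9, 106 and 111 FPKM in Fall 12. The lowest Fall 12 library was well above the highest Fall 13 library, with a log2 fold change of -1.51 ± 0.21 (limma adjusted p = 0.00143).

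AXIN2, a scaffold that restrains beta-catenin and is itself a Wnt target, averaged 0.835 ± 0.368 FPKM in Fall 13 and 5.09 ± 2.16 FPKM in Fall 12 (SD, n = 4 each), for a log2 fold change of -1.69 ± 0.29 (limma adjusted p = 0.00388). CSNK1E, a kinase of both the Wnt pathway and the clock, averaged 8.20 ± 1.86 FPKM in Fall 13 and 18.7 ± 2.07 FPKM in Fall 12 (SD, n = 4 each; limma adjusted p = 0.00379). These 2 and FZD4 were called with all 3 scalings. The frizzled receptors FZD1, FZD6 and FZD7, with log2 fold changes of -1.68, -1.22 and -0.91, were called as deposited and lost with all 3 scalings. Their calls were also lost without library 1196 or 1199, and for FZD1 without 1197, 1200 or 1201, for FZD6 without 1195, 1198 or 1202, and for FZD7 without 1195, 1197, 1200 or 1202. FZD9 averaged 42.5 ± 9.14 FPKM in Fall 13 and 30.7 ± 9.82 FPKM in Fall 12, and FZD8 averaged 8.86 ± 1.97 FPKM in Fall 13 and 6.95 ± 1.28 FPKM in Fall 12 (SD, n = 4 each). Neither was called as deposited, and both were called higher with upper quartile scaling. TCF7, a Wnt-responsive transcription factor, averaged 3.33 ± 1.97 FPKM in Fall 13 and 0.743 ± 1.04 FPKM in Fall 12 (SD, n = 4 each). It too was not called as deposited. With upper quartile scaling and with the same sum without FABP4 it was called higher.

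The list of BMP and TGF-beta genes held calls in both directions. ID1, an inhibitor of helix-loop-helix factors that BMP signals induce, measured 60.5, 48.8, 56.2 and 46.8 FPKM in Fall 13, against 12.9, 8.20, 26.7 and 16.5 FPKM in Fall 12. The lowest Fall 13 library was far above the highest Fall 12 library, with a log2 fold change of 1.77 ± 0.31 (limma adjusted p = 0.00388). SMAD6, an inhibitory SMAD that BMP signals also induce, averaged 26.3 ± 6.15 FPKM in Fall 13 and 14.4 ± 1.32 FPKM in Fall 12 (SD, n = 4 each), for a log2 fold change of 0.80 ± 0.20 (limma adjusted p = 0.0175). That call was lost when the spread was shared over the 16 Ross or all 31 libraries.

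BMPR2 and TGFBR1 were the 2 receptors of the list that were called, both lower. BMPR2, the type II BMP receptor, measured 8.99, 4.86, 3.97 and 3.06 FPKM in Fall 13, against 24.3, 32.2, 30.4 and 43.2 FPKM in Fall 12. No library crossed over, and the log2 fold change was -2.49 ± 0.30 (limma adjusted p = 0.00105). TGFBR1, the type I TGF-beta receptor, averaged 4.31 ± 1.82 FPKM in Fall 13 and 13.2 ± 2.13 FPKM in Fall 12 (SD, n = 4 each), for a log2 fold change of -1.47 ± 0.26 (limma adjusted p = 0.00388). SMAD2, its effector, averaged 10.3 ± 1.99 FPKM in Fall 13 and 16.1 ± 1.22 FPKM in Fall 12 (SD, n = 4 each; limma adjusted p = 0.0304), a call lost with all 3 scalings and without library 1196, 1198, 1199, 1200 or 1202. Of 11 tested members of the list, 2 were higher and 3 lower, with a median of -0.52. Among all tested genes 3.84% were higher and 27.6% lower, with a median of -0.32, so the lower count is near that share. Each of the 3 scalings gave 2 higher and 2 lower, beside 9.21% to 10.7% higher and 10.5% to 12.5% lower among all tested genes.

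Outside that list, CHRDL1, TWSG1 and NBL1 encode secreted BMP binders, and TWSG1 and NBL1 were chosen after their values were seen. CHRDL1, a chordin-like antagonist, measured 0.847, 0.259, 0.250 and 0.649 FPKM in Fall 13, against 36.4, 33.7, 7.93 and 1.46 FPKM in Fall 12. Library 1202 came close to Fall 13. The gene passed the filter only through Fall 12 and so was not tested without any 1 of the Fall 12 libraries, and its log2 fold change of -3.13 ± 0.80 is given as a description. TWSG1, twisted gastrulation, averaged 13.4 ± 1.80 FPKM in Fall 13 and 35.6 ± 3.53 FPKM in Fall 12 (SD, n = 4 each), for a log2 fold change of -1.35 ± 0.15 (limma adjusted p = 0.000903). NBL1, a further antagonist, averaged 45.3 ± 7.59 FPKM in Fall 13 and 90.8 ± 28.6 FPKM in Fall 12 (SD, n = 4 each; limma adjusted p = 0.0225), a call lost with all 3 scalings and without library 1196, 1198, 1199 or 1200.

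Axon guidance molecules, which also guide vessels, gave 1 higher and 3 lower of 6 tested, beside 3.84% higher and 27.6% lower among all tested genes. The lower calls and the median include SEMA3C, which could enter only as a fall. The median was -1.21 as deposited and -0.93 after upper quartile scaling. RGMA, a repulsive molecule and BMP co-receptor, measured 47, 38.3, 29.5 and 27.7 FPKM in Fall 13, against 12.4, 15.0, 13.6 and 15.8 FPKM in Fall 12. All Fall 13 libraries were higher, with a log2 fold change of 1.24 ± 0.20 (limma adjusted p = 0.00268). SEMA3C, a secreted semaphorin, measured 0.256, 0.514, 0.586 and 0.565 FPKM in Fall 13, against 20.8, 21.5, 13.7 and 3.29 FPKM in Fall 12. It was below 1 FPKM throughout Fall 13 and passed the filter only through Fall 12, so its log2 fold change of -3.17 ± 0.50 is given as a description.

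Its receptor NRP2, neuropilin 2, averaged 4.12 ± 3.36 FPKM in Fall 13 and 20.3 ± 9.16 FPKM in Fall 12 (SD, n = 4 each), for a log2 fold change of -2.25 ± 0.52 (limma adjusted p = 0.0140). SLIT3, a ligand of Robo receptors, averaged 2.06 ± 0.883 FPKM in Fall 13 and 7.88 ± 2.96 FPKM in Fall 12 (SD, n = 4 each), for a log2 fold change of -1.51 ± 0.32 (limma adjusted p = 0.00913). Among 8 tested endothelial genes, NRP2 and the vascular cadherin CDH5 were lower and 0 were higher, with a median of -0.27, beside 27.6% lower and a median of -0.32 among all tested genes. CDH5 averaged 57.9 ± 22.0 FPKM in Fall 13 and 100 ± 11.9 FPKM in Fall 12 (SD, n = 4 each; limma adjusted p = 0.0435), and its call was lost with all 3 scalings and without library 1196, 1198, 1199, 1200, 1201 or 1202.

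**Figure D4:**
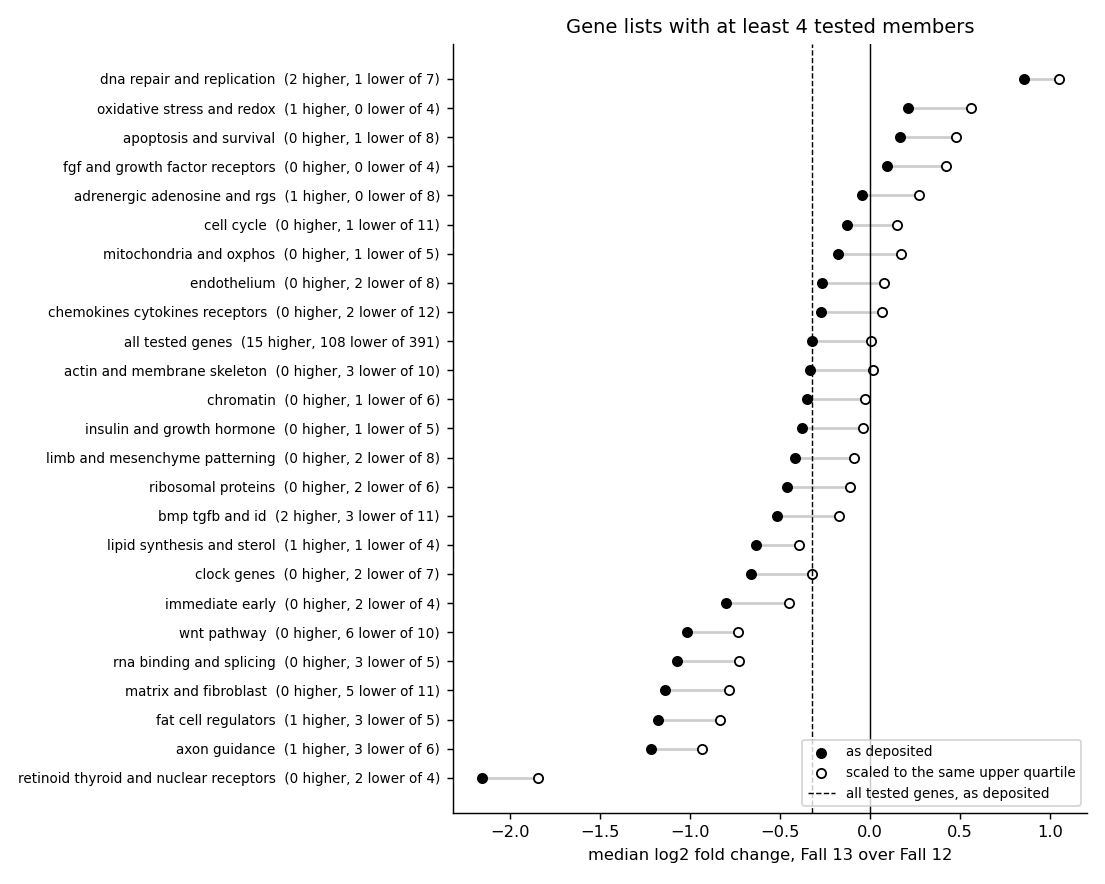
Median log2 fold change of Fall 13 over Fall 12 for each gene list with at least 4 tested members, with filled points for values as deposited, open points after upper quartile scaling, and the calls as deposited in the labels. The dashed line is the median of all tested genes, -0.32; the retinoid, axon guidance, fat cell regulator, matrix, RNA binding and Wnt lists lie below -1, and the DNA repair list is the highest. The retinoid list includes RARA, with Fall 13 libraries at the floor, and the axon guidance list includes SEMA3C, which passed the filter only through Fall 12.

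The list of cytoskeletal and contractile genes gave 3 lower and 0 higher of 10 tested, close to the 27.6% lower among all genes. The list's median of -0.33 was near that of all genes. Further actin-related genes outside the list were among the lower calls, so these figures hold for the 10 listed genes alone. With the 3 scalings 3 members were called higher each time, and 2 or 3 lower. Among all tested genes these scalings gave 9.21% to 10.7% higher and 10.5% to 12.5% lower. CALD1, the actin-binding caldesmon, averaged 52.2 ± 8.75 FPKM in Fall 13 and 158 ± 33.1 FPKM in Fall 12 (SD, n = 4 each), for a log2 fold change of -1.57 ± 0.20 (limma adjusted p = 0.00142). ROCK2, a kinase that promotes actomyosin contraction, averaged 11.5 ± 1.44 FPKM in Fall 13 and 23.9 ± 0.706 FPKM in Fall 12 (SD, n = 4 each; limma adjusted p = 0.00143). Its relative ROCK1 was called at a log2 fold change of -0.93, and not with upper quartile scaling or with the same sum without FABP4. GJB1, a gap junction connexin, averaged 3.33 ± 1.02 FPKM in Fall 13 and 26.8 ± 14.3 FPKM in Fall 12 (SD, n = 4 each), for a log2 fold change of -2.60 ± 0.34 (limma adjusted p = 0.00142).

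Immediate early genes mark recent stimulation of cells. EGR1, a zinc finger factor that stress and handling induce within minutes, measured 132, 94.1, 56.3 and 60.4 FPKM in Fall 13, against 307, 313, 150 and 646 FPKM in Fall 12. The highest Fall 13 and the lowest Fall 12 library were close, and the log2 fold change of -1.93 ± 0.45 (limma adjusted p = 0.0138) was not called with the same sum without FABP4. SGK1, a stress- and glucocorticoid-induced kinase, averaged 113 ± 14.9 FPKM in Fall 13 and 207 ± 56.9 FPKM in Fall 12 (SD, n = 4 each; limma adjusted p = 0.0256), a call lost with all 3 scalings and without library 1196, 1198, 1201 or 1202. These were the 2 lower of 4 tested immediate early genes, 0 being higher, with a median of -0.80, beside 27.6% lower among all tested genes.

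Of 7 clock genes, CLOCK and CSNK1E were lower and 0 were higher, about the 27.6% lower among all tested genes, with a median of -0.66. CLOCK averaged 9.03 ± 1.09 FPKM in Fall 13 and 18.5 ± 2.81 FPKM in Fall 12 (SD, n = 4 each), for a log2 fold change of -0.95 ± 0.17 (limma adjusted p = 0.00388), not called with the same sum without FABP4. Its partner ARNTL averaged 15.0 ± 1.51 FPKM in Fall 13 and 25.1 ± 8.0 FPKM in Fall 12, and the repressor PER2 averaged 24.2 ± 7.08 FPKM in Fall 13 and 38.3 ± 6.94 FPKM in Fall 12 (SD, n = 4 each); their limma adjusted p-values were 0.0573 and 0.0597. The time of day of sampling is not in the labels.

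Regulators of RNA came next. Of 5 tested RNA-binding genes, CELF1, CELF2 and QKI, all splicing regulators, were lower and 0 were higher. The list's median was -1.07, and 27.6% of all tested genes were lower. CELF2 averaged 2.91 ± 1.49 FPKM in Fall 13 and 9.06 ± 2.11 FPKM in Fall 12 (SD, n = 4 each; limma adjusted p = 0.00824), was called with all 3 scalings and was not called when the spread was shared over the 16 Ross or all 31 libraries. QKI, at a log2 fold change of -1.07, and CELF1, at -1.84, were not called with any of the 3, and CELF1 also not without library 1195, 1197, 1198, 1199 or 1200. Of 6 tested ribosomal proteins, RPL5 and RPL6 were lower and 0 were higher, beside 27.6% lower among all tested genes. The list's median was -0.46 as deposited and -0.11 after upper quartile scaling, where 0 were called. With quantile normalization 2 were lower, and with the same sum without FABP4 1 was lower, beside 12.5% and 10.5% of all tested genes. RPL5 was lost with upper quartile scaling alone.

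Of 3 tested translation factors, EEF1A1 and EIF4A2 were lower and 0 were higher, beside 27.6% lower among all tested genes. EEF1A1, the elongation factor, had the most negative fold change and the least even values. It measured 51.0, 4.96, 5.98 and 30.2 FPKM in Fall 13, against 2093, 118, 114 and 1773 FPKM in Fall 12. The groups do not overlap, but within each trial values differed more than 10 times, and the call (log2 fold change -4.88 ± 1.24, limma adjusted p = 0.0224) was lost without library 1196, 1197, 1199 or 1202. Fragments shared between close copies of a gene can make FPKM values uncertain. Whether this holds for EEF1A1 or the ribosomal protein genes was not tested. EIF4A2, an RNA helicase, averaged 484 ± 105 FPKM in Fall 13 and 914 ± 146 FPKM in Fall 12 (SD, n = 4 each; limma adjusted p = 0.0121), a call lost with all 3 scalings.

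Among the 15 higher genes, GLDC had the largest fold change of those measurable in both trials. GLDC, the decarboxylase of the glycine cleavage system, measured 21.2, 16.9, 35.8 and 15.2 FPKM in Fall 13, against 4.35, 2.27, 6.86 and 5.42 FPKM in Fall 12. Every Fall 13 library was above every Fall 12 library, with a log2 fold change of 2.02 ± 0.34 (limma adjusted p = 0.00374). UBA7, the activating enzyme for the interferon-induced modifier ISG15 in mammals, measured 20.2, 19.6, 38.1 and 35.6 FPKM in Fall 13, against 7.65, 6.72, 6.18 and 15.2 FPKM in Fall 12. The groups do not overlap, with library 1202 nearest to Fall 13, and the log2 fold change of 1.58 ± 0.33 (limma adjusted p = 0.00912) was not called with the spread of the 16 Ross or all 31 libraries.

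Genes of DNA repair had a median of 0.85, the highest of the lists drawn. Of 7 tested, 2 were higher and 1 lower, beside 3.84% higher and 27.6% lower among all tested genes. POLH, a polymerase that copies across lesions, averaged 18.9 ± 5.47 FPKM in Fall 13 and 8.88 ± 2.25 FPKM in Fall 12 (SD, n = 4 each), for a log2 fold change of 0.99 ± 0.25 (limma adjusted p = 0.0187). FANCG, of the Fanconi core complex, averaged 6.35 ± 1.49 FPKM in Fall 13 and 2.91 ± 0.676 FPKM in Fall 12 (SD, n = 4 each; limma adjusted p = 0.0186). POLK, a relative of POLH, fell by 0.68 on the log2 scale, and that call was lost with all 3 scalings and without library 1200.

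Other higher genes were spread over functions. PIK3AP1, an adaptor of B cell and Toll-like receptor signals, averaged 8.32 ± 2.09 FPKM in Fall 13 and 4.02 ± 0.772 FPKM in Fall 12 (SD, n = 4 each; limma adjusted p = 0.0187), a call lost without library 1199. ADORA3, an adenosine receptor, averaged 2.50 ± 0.490 FPKM in Fall 13 and 0.784 ± 0.240 FPKM in Fall 12 (SD, n = 4 each). It was the 1 higher of 8 adrenergic, adenosine and RGS genes, with 0 lower, beside 3.84% higher and 27.6% lower among all tested genes. ADORA3 passed the filter only through Fall 13, so its values are given as a description. PARK7, which protects against oxidants, averaged 52.3 ± 3.48 FPKM in Fall 13 and 34.0 ± 1.85 FPKM in Fall 12 (SD, n = 4 each; limma adjusted p = 0.0109). It was the 1 higher of 4 redox genes, with 0 lower, beside the same shares of all tested genes. PTS, of tetrahydrobiopterin synthesis, had a log2 fold change of 0.64, and its call was lost without library 1196, 1198, 1199, 1200, 1201 or 1202. TRAF5, an adaptor of TNF receptors, stood at 2.02, 2.52, 2.01 and 2.08 FPKM in Fall 13 and was listed at the floor in all 4 Fall 12 libraries, so no fold is given; it too passed the filter only through Fall 13.

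In the other lists single genes were called, all lower. These were the mitochondrial adenine nucleotide carrier SLC25A6 of 5 mitochondrial genes, the hedgehog inhibitor SUFU of 2 hedgehog and Notch genes, the chaperone HSP90B1 of 3 folding genes, the deacetylase HDAC4 of 6 chromatin genes, the adaptor GRB2 of 5 insulin and growth hormone genes, the replication clamp PCNA of 11 cell cycle genes and the kinase HIPK2 of 8 apoptosis genes. SLC25A6 averaged 183 ± 27.8 FPKM in Fall 13 and 465 ± 71.6 FPKM in Fall 12 (SD, n = 4 each; limma adjusted p = 0.00143) and was called with all 3 scalings. SUFU, at a log2 fold change of -0.85, was lost with quantile normalization alone of the 3, whereas HSP90B1, HDAC4, GRB2, PCNA and HIPK2 were lost with all 3. The calls of HDAC4 and GRB2 were also lost without library 1199 and without library 1200 in that order, that of HSP90B1 without 1197, 1198, 1199, 1200 or 1201, that of PCNA without any library but 1196 and that of HIPK2 without any but 1200. None was called among 3 glycolysis genes, 4 FGF and growth factor receptor genes, 2 leukocyte genes, 2 B and plasma cell genes, 1 striated muscle gene, 1 Hox gene and 1 gene of lipolysis and fatty acid oxidation, and no nerve gene was tested. With each of the 3 scalings BTK was called higher, a gene that is in both the leukocyte list and the B and plasma cell list. With quantile normalization PTPRC and the striated muscle gene were also called higher. Among all tested genes these scalings gave 9.21% to 10.7% higher.

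Whether the same trial difference held in cardiac fat was tested in the 16 Ross libraries, where 423 genes passed the filter. In cardiac fat alone, 31 genes (7.33%) were called between the trials, 2 higher (0.473%) and 29 lower (6.86%) in Fall 13, and 17 of these were also among the 123 called in abdominal fat, in the same direction. The difference of the trial effects, abdominal minus cardiac, passed in 6 genes (1.42%), 2 positive (0.473%) and 4 negative (0.946%), with 59 at an unadjusted p below 0.05. Column headers give 1 abdominal and 1 cardiac library the same second number, whose meaning is not stated. With that number as a replicate block 0 genes passed, and CXCL12 had a limma adjusted p of 0.0856. The values below are without the block, and the calls among them depend on leaving it out. CXCL12 was at 34.9 ± 11.1 FPKM in Fall 13 and 61.2 ± 11.9 FPKM in Fall 12 in cardiac fat (SD, n = 4 each), so its fall was larger in abdominal fat by -2.59 ± 0.45 on the log2 scale (limma adjusted p = 0.0137). PRRX1 averaged 74.5 ± 58.5 FPKM in Fall 13 and 40.7 ± 6.39 FPKM in Fall 12 in cardiac fat (SD, n = 4 each), a depot difference of -3.02 ± 0.70 (limma adjusted p = 0.0447).

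TBX18, a T-box factor of mesenchyme that was under the filter in the 8 abdominal libraries, averaged 0.278 ± 0.115 FPKM in Fall 13 and 5.81 ± 3.51 FPKM in Fall 12 in abdominal fat, and 13.9 ± 2.41 FPKM in Fall 13 and 11.3 ± 1.74 FPKM in Fall 12 in cardiac fat (SD, n = 4 each), a depot difference of -2.46 ± 0.54 (limma adjusted p = 0.0389). STK25, a kinase linked to lipid droplets in mammals, averaged 16.5 ± 1.77 FPKM in Fall 13 and 31.7 ± 4.21 FPKM in Fall 12 in abdominal fat, and 32.2 ± 5.35 FPKM in Fall 13 and 28.9 ± 1.53 FPKM in Fall 12 in cardiac fat (SD, n = 4 each; depot difference -1.04 ± 0.23, limma adjusted p = 0.0397). In the 8 abdominal libraries alone, STK25 was called lower as deposited, a call lost with all 3 scalings. The remaining 2 genes, CHRNA3, a nicotinic receptor of autonomic ganglia, and SS2, a somatostatin, averaged below 1 FPKM in abdominal fat of both trials. In cardiac fat CHRNA3 averaged 0.359 FPKM in Fall 13 and 7.28 FPKM in Fall 12, and SS2 averaged 5.08 FPKM in Fall 13 and 57.8 FPKM in Fall 12. CHRNA3 could pass the filter only through cardiac Fall 12, and SS2 only through cardiac fat. Their depot differences are therefore given as descriptions. The number of depot differences called was between 1 and 13 when single libraries were left out, with 13 without library 1202 and 1 without cardiac library 1209, 1210 or 1211.

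**Figure D5:**
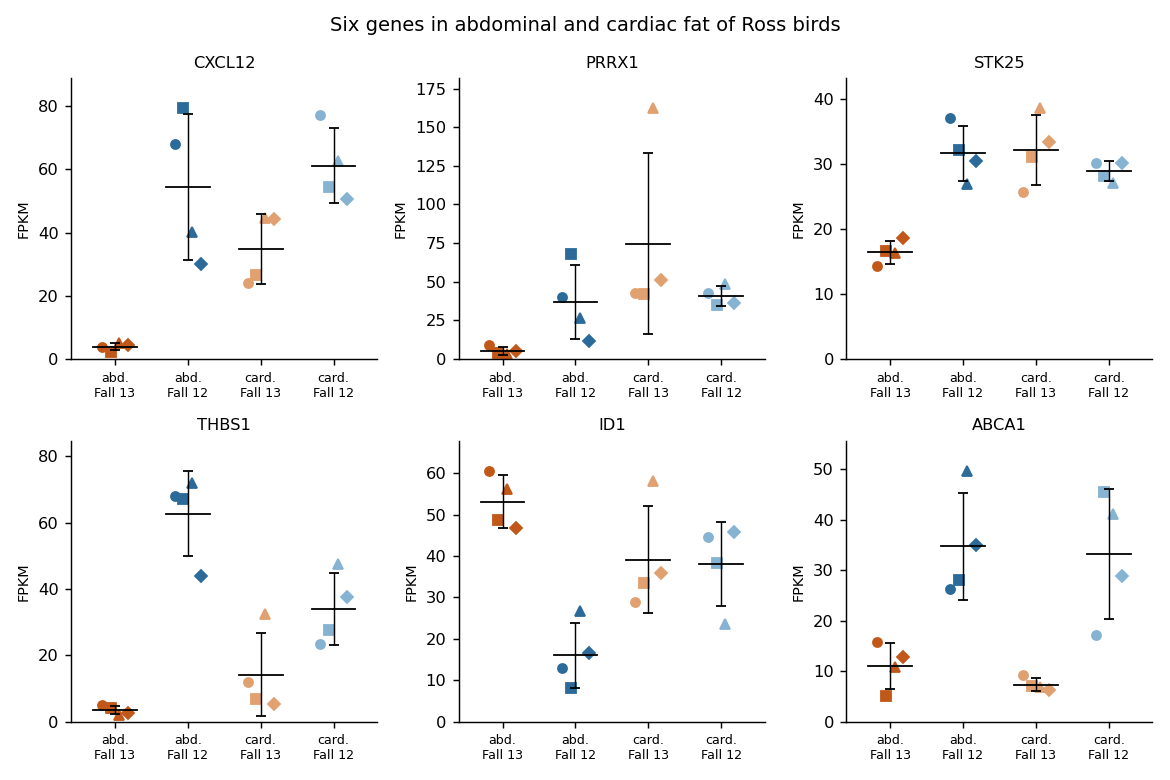
FPKM of 6 genes in the 4 Ross groups, abdominal Fall 13, abdominal Fall 12, cardiac Fall 13 and cardiac Fall 12 from left to right, 1 point per library with shapes in the order of library numbers, and the mean ± SD (n = 4 each) in black. CXCL12, PRRX1 and STK25 passed the test of a depot difference; THBS1, ID1 and ABCA1 did not.

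For THBS1, ID1 and ABCA1 the depot difference had limma adjusted p-values of 0.0668, 0.0668 and 0.743. THBS1 was at 14.2 ± 12.5 FPKM in Fall 13 and 34.0 ± 10.8 FPKM in Fall 12 in cardiac fat, and ID1 at 39.2 ± 13.0 FPKM in Fall 13 and 38.1 ± 10.2 FPKM in Fall 12 (SD, n = 4 each). ABCA1 was at 7.38 ± 1.31 FPKM in Fall 13 and 33.2 ± 12.8 FPKM in Fall 12 in cardiac fat (SD, n = 4 each), and PPARG at 49.1 ± 17.7 FPKM in Fall 13 and 29.4 ± 16.1 FPKM in Fall 12. The depot difference of PPARG was -0.15 ± 0.54 (limma adjusted p = 0.916).

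Illinois abdominal libraries, all of Fall 13, give a level of the same depot in another line, with no test. Their range was 6.56 to 16.4 FPKM for THBS1 with a median of 11.4, between the Ross trials and nearer to Ross Fall 13. CXCL12 lay at 17.6 to 50.3 FPKM there with a median of 34.6, above all Ross Fall 13 libraries and overlapping Ross Fall 12. PPARG lay at 38.0 to 92.9 FPKM with a median of 58.4, across both Ross trials.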

How the data were processed

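The deposited values are FPKM (Cufflinks, with Bowtie and TopHat, per the submitters' processing notes); versions, the build and the gene models were not given in the sources used here, and the file header does not name the unit. FPKM divides by the library total, so an abundant gene lowers the values of all others. Of 567 lines 566 were complete, and 564 genes remained after 2 duplicates. Names are the table's; 562 of the 564 gene numbers matched RefSeq's table (GRCg7b), 541 with the same symbol.

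Values were tested as log2(FPKM + 1) where a gene reached 1 FPKM in 4 or more libraries of the fit, with limma 3.58.1 (statmod 1.5.0, R 4.3.3; trend and robust), two-sided, with Benjamini-Hochberg adjustment and a threshold of 0.05. The fit across 8 libraries had no covariates, and the depot difference used 4 group means in 16 libraries. The steps were tested on simulated data. In genes with regular steps among low values, 85.7% of 1247 values (91 genes) were within 0.05 fragments of a whole number. The depths and the step of each gene were fitted to these same low values, so that share does not test them. Depth itself is not in the file.

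The comparison, members and lists were chosen with earlier results of these data known. Named genes are the 12 largest called changes each way with at least 5 FPKM in the higher group, up to 4 called members per list, the 4 largest each way of the depot difference, and PPARG, FABP4, CAV1 and CXCL12. The choice of any other gene named came after its values were seen. Alternatives covered pseudocount, filter, scaling, floor values, moderation, library weights, the libraries sharing the spread and each library left out.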

Additional observations from a re-analysis of the deposited data

Results flagged for a closer look

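In 12 of 182 groups of 4 library values, 1 library stood apart from the other 3 by Dixon's criterion, and chance gives about 1 in 20. In Fall 13, library 1195 stood apart at 1.81 FPKM for GJB1 (3.75 to 3.97 FPKM in the others) and at 34.0% for the share of FABP4 (36.3% to 36.5%). Library 1196 stood apart at 5.57 FPKM for CELF1 (0.824 to 0.959 FPKM) and at 2.52 FPKM for TRAF5 (2.01 to 2.08 FPKM). Library 1198 stood apart at 642.5 FPKM for EIF4A2 (427 to 435 FPKM), 147 FPKM for CAV1 (272 to 296 FPKM), 2.703 FPKM for FZD7 (0.879 to 1.15 FPKM) and 19.2 FPKM for CLTC (24.4 to 25.2 FPKM). In Fall 12, library 1202 stood apart at 15.2 FPKM for UBA7 (6.18 to 7.65 FPKM) and 43.8 FPKM for THBS1 (67.3 to 72.0 FPKM), library 1200 at 12.2 FPKM for CELF2 (7.80 to 8.25 FPKM) and library 1201 at 2.30 FPKM for TCF7, a Wnt-responsive transcription factor (0.156 to 0.294 FPKM).

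By limma's contrast of the 2 trial effects, 6 genes were called for a difference between abdominal and cardiac fat of Ross birds. With the second number of the column headers as a replicate block, 0 were called. The difference, abdominal minus cardiac, was -2.59 for CXCL12, -3.02 for PRRX1, -2.46 for TBX18 and -1.04 for STK25, and positive for CHRNA3 (2.604) and SS2 (3.71). For CHRNA3 the cardiac means were 0.359 FPKM in Fall 13 and 7.28 FPKM in Fall 12, and for SS2 they were 5.08 FPKM in Fall 13 and 57.8 FPKM in Fall 12. Both averaged below 1 FPKM in abdominal fat of both trials. CHRNA3 could pass the filter only through cardiac Fall 12 and SS2 only through cardiac fat, so these 2 differences are descriptions.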

How the results depend on the processing

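Against 123 calls (15 higher, 108 lower), upper quartile scaling gave 37 higher and 47 lower, quantile normalization 42 and 49, and the same sum without FABP4 36 and 41, or 77 in all. These shared 62, 64 and 56 genes with the 123. The median of all genes turned from -0.32 to 0.00896, 0.0527 and 0.0535 in that order. Library weights gave 23 higher genes. Without single libraries there were 80 to 121 calls, 11 to 20 higher and 67 to 103 lower; 69 genes were called without any 1 library and 45 of these also with every scaling. Sharing the spread over the 16 Ross libraries ended 29 of the 123 calls, over all 31 libraries 35, and leaving out the filter 9. Among genes named here the 16 libraries ended those of UBA7, SMAD6, PPARG, GRB2, TBX2, CELF2, CDH5, SUFU, HSP90B1, HIPK2, POLK, EBF3 and PCNA, and all 31 those of the same genes but SUFU and also of DBI, PTS, ROCK1, SMAD2, NBL1, TWSG1 and NR1H3. Without a filter, of the named genes CELF1, FZD1, FZD6, TBX2, CDH5 and PCNA were lost, ADORA3 and TRAF5 fell under the filter without any 1 Fall 13 library, and SEMA3C and CHRDL1 without any 1 Fall 12 library. No call turned to the other side in any of these settings. The FABP4 share differed by 6.24 to 8.97 points without single libraries, where the smallest possible exact permutation p is 0.0571. The 6 depot differences became 3 with a pseudocount of 5, 3 without genes at the floor, 3 without libraries with CASQ2 of at least 10 FPKM, 12 with library weights and 1 to 13 without single libraries. Column headers give 1 abdominal and 1 cardiac library the same second number, whose meaning is not stated; deviations of such pairs correlated at -0.01 to 0.43 and 4 of 8 were best with their own, so it was not taken as pairing. With it as a replicate block, added after the data were seen, 0 depot differences were called (73 at an unadjusted p below 0.05). No paired analysis was possible for the trials because they share no numbers. Depth limits genes near 1 FPKM, and values at the floor are not measured levels.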

Other observations

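Genes of adhesion, membrane traffic and membrane proteolysis, chosen after their values were seen, were among the lower calls. CLTC, the clathrin heavy chain, averaged 23.4 ± 2.81 FPKM in Fall 13 and 77.8 ± 21.1 FPKM in Fall 12 (SD, n = 4 each), for a log2 fold change of -1.66 (limma adjusted p = 0.00128). ADAM10, a sheddase, averaged 18.5 ± 2.78 FPKM in Fall 13 and 40.4 ± 0.898 FPKM in Fall 12 (SD, n = 4 each; limma adjusted p = 0.00143). Both were called with all 3 scalings. The integrin subunits ITGB1 and ITGA3 and the connexin GJA1 had log2 fold changes of -0.88, -0.94 and -1.18, and their calls were lost with all 3 scalings. Without single libraries the calls were lost for ITGA3 (1198, 1200 or 1202) and GJA1 (1196, 1198, 1199, 1200 or 1202).

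Some genes with large differences between libraries were not called. GZMA, granzyme A of cytotoxic lymphocytes, measured 9.86, 126, 69.4 and 22.0 FPKM in Fall 13, against 4.73, 10.01, 19.6 and 2.19 FPKM in Fall 12 (log2 fold change 2.27 ± 0.88, limma adjusted p = 0.0817). GPX4, a selenoprotein that reduces lipid peroxides, measured 2486 to 3007 FPKM in Fall 13, and 1786, 3410 and 1265 FPKM in Fall 12 libraries 1199, 1200 and 1201 while listed at the floor in library 1202.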
